A study of Mus musculus with 6 samples.

Results

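The tumor nuclei described here were chosen by the summed UMI share of 7 genes, Etv4, Plcd3, Adamtsl5, Igf2bp1, Igf2bp2, Meis2 and Bicd1, in single-nucleus RNA sequencing (snRNA-seq) of subcutaneous TC1 tumors. A unique molecular identifier (UMI) counts 1 captured RNA molecule. A nucleus was taken as a tumor nucleus when Hmga2, Mecom and Slit2 together made up at least 0.5% of its UMIs and fewer than 3 of its UMIs came from 5 macrophage genes. In each library the 15% of tumor nuclei with the highest marker share, with at least 3 marker UMIs, were the marker-high nuclei. They numbered 1220 of 8149 tumor nuclei, and all libraries together held 18014 nuclei after filtering, of which 10862 had at least 1500 UMIs. Replicates 1, 2 and 3 of MCT2 CO gave 248, 209 and 108 marker-high nuclei, and those of MCT2 KO gave 356, 192 and 107. The working name of the group was an Etv4, Igf2bp and Adamtsl5 tumor state. With each marker left out of the choice in turn, that name was not borne out, as described further on.

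The 6 libraries, 3 MCT2 CO and 3 MCT2 KO, came from frozen tumors of TC1 cells, a line made from mouse lung epithelial cells transformed with papillomavirus oncogenes and Ras. All hosts were MCT2loxP/loxP; Cre+ mice on a C57BL/6 background, 8 weeks old at treatment. The KO mice received tamoxifen on 5 days and the CO mice received vehicle, TC1 cells were then injected under the skin of the flank, and tumors were taken after 24 days. The deletion was made in the host and not in the implanted TC1 cells, CO and KO hosts differ in tamoxifen exposure as well as in the gene, and the promoter that drives Cre is not given in the sources used here.

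Etv4 is an ETS transcription factor of the PEA3 family, which the Ras-MAPK and FGF pathways induce. Igf2bp1 and Igf2bp2 encode RNA-binding proteins that stabilise growth-related mRNAs in the embryo and in many carcinomas, and Meis2 is a TALE homeobox factor that binds DNA with PBX and HOX proteins. Adamtsl5 encodes a secreted matrix protein without a protease domain, Plcd3 a delta-type phospholipase C that cleaves membrane phosphoinositides, and Bicd1 an adaptor that links cargo to the dynein motor.

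In the gene annotation of build GRCm38 the markers lie on 5 chromosomes, and 3 of them share chromosome 11. These are Etv4 at 101769742 to 101785371, Plcd3 at 103070304 to 103101658 and Igf2bp1 at 95957163 to 96005940, all on the minus strand. Meis2 lies on chromosome 2 at 115863064 to 116065839, Igf2bp2 on chromosome 16 at 22059009 to 22163299 and Adamtsl5 on chromosome 10 at 80339110 to 80348412, also on the minus strand. Bicd1 lies on the plus strand of chromosome 6 at 149408886 to 149563329. All 7 are protein-coding.

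Slc16a7, the gene of the transporter MCT2 and the target of the deletion, did not separate the groups. Over all filtered nuclei it stood at 8.57, 11.8 and 22.01 CPM in the CO libraries, where CPM is the UMIs of a gene rescaled so that each library has 1 fixed total, and at 16.4, 7.25 and 31.5 CPM in the KO libraries. Tumor nuclei held 6, 9 and 12 Slc16a7 UMIs in CO and 23, 18 and 14 in KO, counts that are not scaled for depth. Scaled, they were 0.49, 0.80 and 2.03 CPM in CO and 1.73, 1.42 and 1.89 CPM in KO, and the groups overlapped. The log2 fold change was 0.71 (adjusted p = 0.597 in edgeR's quasi-likelihood test). Marker-high nuclei held 0, 1 and 0 in CO and 0, 0 and 2 in KO, too few to compare. Total depth lay between 13252572 and 22057084 UMIs per library. KO replicate 1 stood apart from its group: the chi-square per degree of freedom of its summed tumor counts against KO replicates 2 and 3 was 167 and 72.2, against 14.4 between those. CO replicate 3 stood apart by less, at 42.9 and 28.8 against CO replicates 1 and 2, against 6.99 between those. Any pair of libraries shared 15 to 19 cell barcodes, and 5 marker-high nuclei carried such a barcode. In these tumors fewer cells of a kind and less RNA per cell cannot be told apart in a sum.

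The marker share chose the nuclei, so its values are given as a description. The marker-high nuclei were the upper end of a continuous range and not a separate group. In CO replicate 1 the last nucleus taken had 25.68 marker UMIs per 10000 and the first left out had 25.66, and the limits of the other libraries lay between 25.47 and 29.36 per 10000. Between 11.7 and 14.6% of the tumor nuclei of a library lay within 10% of its limit. The marker-high nuclei were shallower than the others in all 6 libraries, with median UMIs of 3056.5 to 5542.5 against 4490.5 to 8442.

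**Figure D1:**
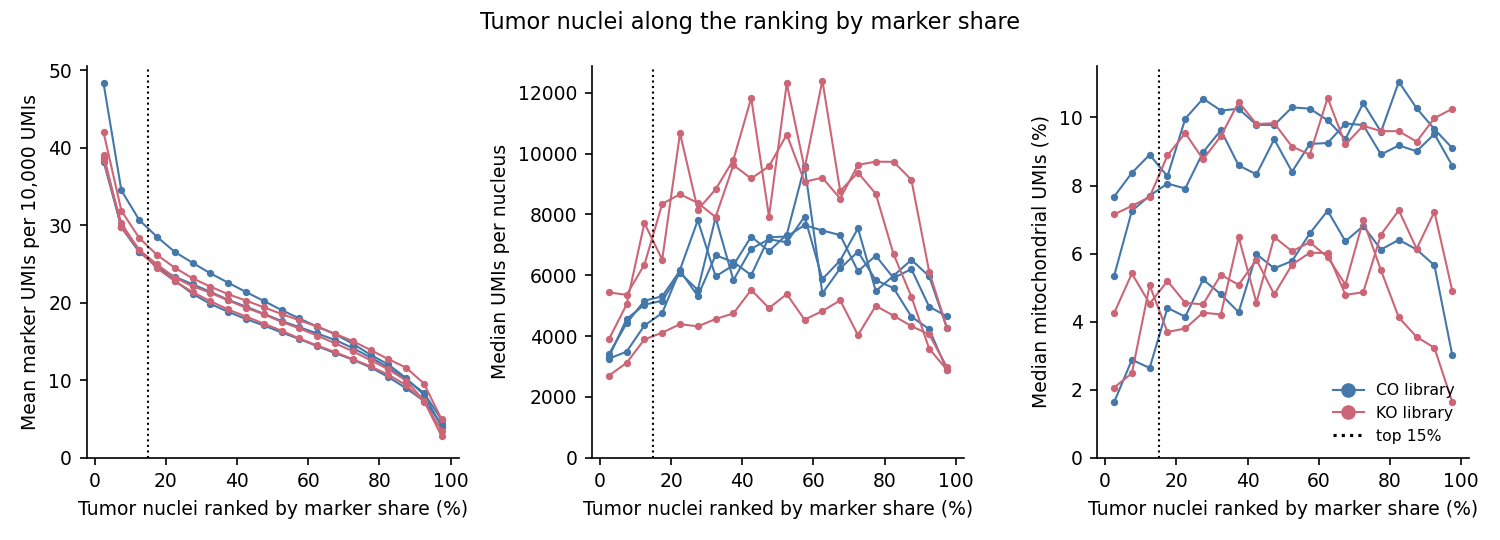
Tumor nuclei of each library ranked by marker share from highest (left) to lowest (right) in 20 bins, with the mean marker UMIs per 10000 UMIs, the median UMIs per nucleus and the median mitochondrial percent of each bin; blue lines are CO libraries, red lines KO libraries, and the dotted line marks the top 15%. The marker share declines without a step at the line, and the leftmost bin has the mean shares of 38.2 to 48.3 per 10000.

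Meis2, the homeobox factor, supplied the largest number of marker UMIs in the marker-high nuclei, 30.5 to 55.5% of them by library, a share that is not corrected for gene length. Its level in replicates 1, 2 and 3 was 1029, 927 and 2073 CPM in CO marker-high nuclei against 446, 487 and 735 CPM in the other tumor nuclei. In KO the values were 940, 1623 and 1186 CPM against 426, 702 and 569 CPM. CO replicate 3 and KO replicate 2 had the highest Meis2 in both sets of nuclei. The ratio of the means was 2.31, the highest of the 7 markers.

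The RNA-binding genes followed with smaller ratios. Igf2bp2 ranged from 652 to 797 CPM in marker-high nuclei and from 324 to 479 CPM in the others, a ratio of 1.84 between the means. Igf2bp1 ranged from 170 to 310 CPM against 140 to 185 CPM, a ratio of 1.46. The ratio was 1.76 for Adamtsl5, 1.68 for Plcd3, 1.59 for Bicd1 and 1.502 for Etv4, and each of the 7 was higher in 6 of 6 libraries, which the rule fixes on average. Plcd3 was lowest in KO replicate 2, at 72.8 CPM in marker-high nuclei, where Bicd1 was highest, at 418 CPM. Among the genes of the tumor gate, Mecom was also higher in 6 of 6 libraries, by less, at a ratio of 1.13 (1.05 to 1.24 by library). Hmga2 was higher in 4 of 6, at a ratio of 1.00, and Slit2 in 3 of 6, at 0.99.

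**Figure D2:**
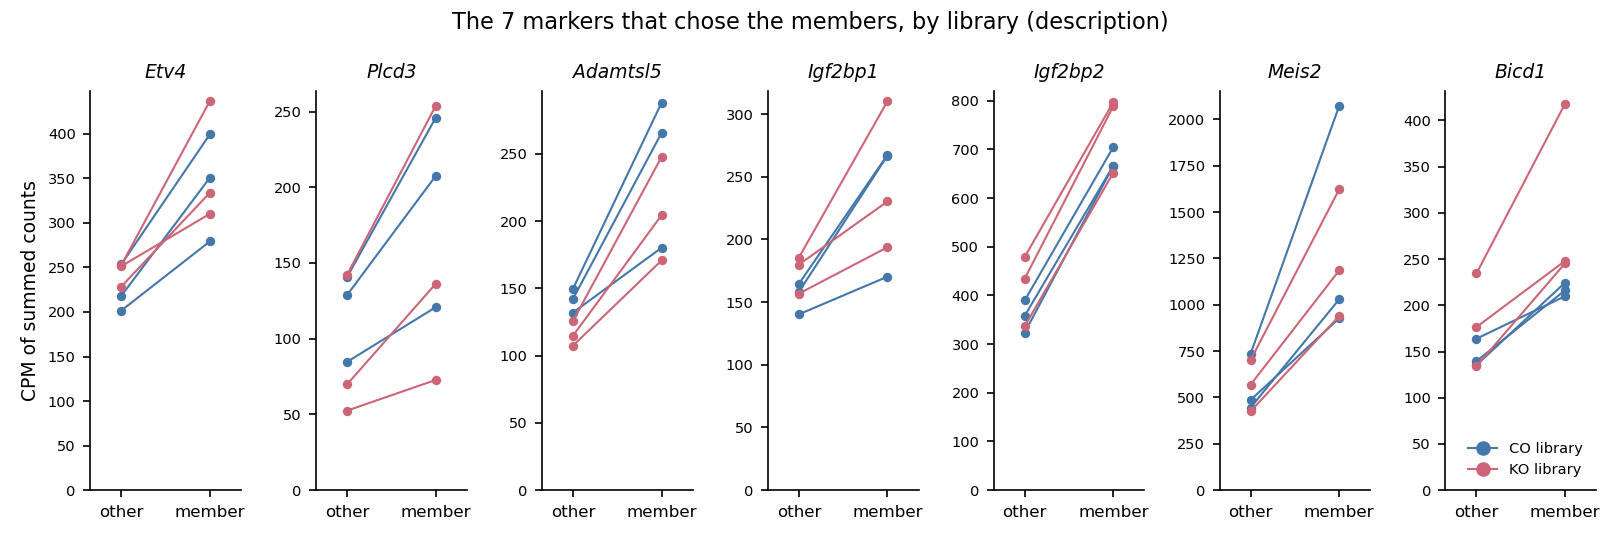
Level of each of the 7 markers (CPM of counts summed per library, each axis starting at 0) in the other tumor nuclei and in the marker-high nuclei; each line joins the values of 1 library, blue for CO and red for KO. All lines rise, as the choice of nuclei requires, and Meis2 rises most, from a mean of 561 to 1296 CPM.

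Few single nuclei carried the whole signature. With every nucleus thinned at random to 1500 UMIs, Meis2 was detected in 67.9 to 95.4% of marker-high nuclei, in 44.6 to 58.7% of the other tumor nuclei and in 2.10 to 9.41% of nuclei with 3 or more macrophage-gene UMIs, which served as the background of free RNA. The same shares for Etv4 were 36.1 to 46.4%, 23.9 to 29.3% and 1.88 to 3.49%. A marker-high nucleus held a median of 3 of the 7 markers after thinning, and another tumor nucleus 2, in every library. Without thinning, 6.48 to 20.6% of the marker-high nuclei of a library had all 7 markers. Meis2 alone gave more than 50% of the marker UMIs in 10.96 to 53.7% of them, with the highest share in CO replicate 3. The median depth of the macrophage-gene nuclei was 1842 to 2443.5 UMIs.

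Whether the 7 genes rise in the same nuclei was asked by choosing the nuclei without each marker in turn and testing the marker left out. None of the 7 passed the test, an absolute log2 fold change of at least 0.58 and a Benjamini-Hochberg adjusted p of at most 0.05 in edgeR's quasi-likelihood test. Meis2 stood at 663 CPM in nuclei chosen on the other 6 markers against 631 CPM in the rest, a log2 fold change of 0.08 ± 0.04 (SE, 6 libraries, adjusted p = 0.433). Etv4 had 240 against 247 CPM and a log2 fold change of -0.03 ± 0.05 (adjusted p = 0.809). The other log2 fold changes were 0.15 for Plcd3 (adjusted p = 0.223), 0.13 for Adamtsl5, 0.10 for Igf2bp2, 0.02 for Igf2bp1 and -0.01 for Bicd1. In these fits 0.284% of all genes tested were called higher with Etv4 left out, 0.177% with Plcd3, 0.115% with Adamtsl5, 0.221% with Igf2bp1, 0.0796% with Igf2bp2, 0.0353% with Meis2 and 0.274% with Bicd1. By this measurement the name of a common Etv4, Igf2bp and Adamtsl5 state was not borne out, and the nuclei are called marker-high.

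A second measurement kept all 7 markers and split the UMIs of each nucleus at random into a set used for choosing and a set used for measuring. Each marker thus still took part in choosing the nuclei, Meis2 with the most UMIs. A rise in the measuring set shows that a marker differs between nuclei beyond counting error. It cannot show that the markers rise together. Meis2 was the single marker that passed in the measuring set, at 989 ± 408 CPM against 579 ± 128 CPM (SD, 6 libraries), a log2 fold change of 0.72 ± 0.06 (SE, adjusted p = 2.51e-15) and higher in 6 of 6 libraries. Across all genes of that fit 0.0776% were called higher. Igf2bp2 (0.33, adjusted p = 0.000501, higher in 5 of 6) and Adamtsl5 (0.29, adjusted p = 0.0353, higher in 6 of 6) had adjusted p under the limit and stayed below the fold limit. Bicd1 at 0.27, Plcd3 at 0.18, Igf2bp1 at 0.14 and Etv4 at 0.09 did not pass, with adjusted p from 0.0526 to 0.712. Summed over the markers, the measuring set held 20.9 to 29.2 marker UMIs per 10000 in the chosen nuclei against 16.2 to 19.1 in the rest. Of the nuclei chosen on the choosing set, 25.4 to 36.1% were again in the top 15% of the measuring set, where 14.90 to 14.99% of all tumor nuclei were.

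**Figure D3:**
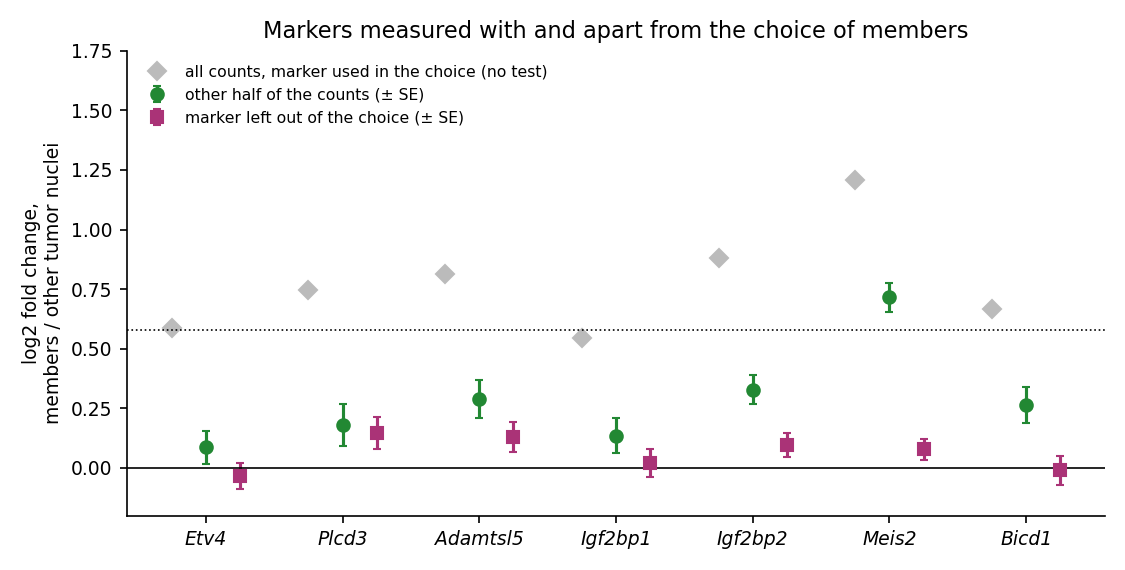
log2 fold change of each marker between marker-high and other tumor nuclei: grey diamonds from the counts that chose the nuclei (no test), green circles from UMIs kept out of the choice, purple squares from nuclei chosen without that marker; bars are ± 1 SE and the dotted line is the fold limit of 0.58. In UMIs kept out of the choice, from nuclei still chosen on all 7 markers, only Meis2 passes the line, at 0.72. With each marker left out of the choice all 7 lie between -0.03 and 0.15.

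Outside the 15 genes that the rule used, few genes differed between marker-high and other tumor nuclei, and most of those were lower. Of 11291 genes tested, 14 were called higher (0.124%) and 57 lower (0.505%), 71 in all (0.629%). By adjusted p alone 193 were higher (1.71%) and 362 lower (3.21%). Most called genes were scarce, with 5 of the 14 and 13 of the 57 reaching a mean of 30 CPM. When each marker-high nucleus was set against the other tumor nucleus of its library nearest in UMIs, 1 of 9767 genes was called higher (0.0102%) and 33 lower (0.338%). Of the 71 genes called in the full comparison 47 could be tested at matched depth, and 0 of 10 higher and 17 of 37 lower genes were called there too. DESeq2 called 4 genes, 2 in each direction, and gave an adjusted p for 7 of the 71.

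Of the genes named by the fixed rule 2 rose, Gpm6b and Rspo3, and neither was called at matched depth. Gpm6b, a proteolipid-family membrane glycoprotein on chromosome X at 166238911 to 166388988, ranged from 47.6 to 129 CPM in marker-high nuclei with a median of 83.8, and from 31.6 to 83.4 CPM in the others with a median of 56.8. It was higher in 6 of 6 libraries while the ranges overlapped, with a log2 fold change of 0.61 ± 0.08 (edgeR adjusted p = 1.89e-06). Rspo3, a secreted R-spondin that strengthens Wnt signaling, stood at 14.6, 26.0 and 91.1 CPM in CO and 15.1, 28.3 and 13.6 CPM in KO marker-high nuclei. In the others it stood at 11.95, 13.8 and 49.0 CPM in CO and 13.98, 17.7 and 9.92 CPM in KO, so that CO replicate 3 was far above the other libraries in both sets. Its log2 fold change was 0.62 ± 0.14 (edgeR adjusted p = 0.00467). Against nuclei of matched depth the values were -0.03 for Gpm6b (adjusted p = 0.943) and 0.02 for Rspo3 (adjusted p = 0.976). With nuclei chosen without Meis2 they were -0.33 and 0.02.

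The same rule named 10 genes that fell. Tafa1, a secreted neurokine-like protein encoded on chromosome 6 at 96113154 to 96657198, had 54.5, 52.1 and 190 CPM in CO and 81.3, 123 and 62.7 CPM in KO marker-high nuclei. In the others it had 76.7, 102 and 252 CPM in CO and 95.3, 243 and 114 CPM in KO. Each library was lower in marker-high nuclei, while CO replicate 3 and KO replicate 2 were high in both sets, and the log2 fold change was -0.66 ± 0.08 (edgeR adjusted p = 2.37e-07). Sema7a, a membrane-anchored semaphorin on chromosome 9 at 57940112 to 57962865, had 44.8, 59.2 and 41.6 CPM in CO and 43.7, 46.7 and 72.2 CPM in KO. In the other nuclei all 6 values lay between 66.7 and 83.2 CPM. KO replicate 3 alone brought the Sema7a ranges together, and the log2 fold change was -0.59 ± 0.09 (edgeR adjusted p = 2.07e-05).

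Il34, a cytokine that binds the macrophage receptor Csf1r, ranged from 13.9 to 40.9 CPM (median 29.2) in marker-high nuclei and from 34.4 to 62.6 CPM (median 50.9) in the others. The log2 fold change was -0.82 ± 0.11, with an adjusted p of 2.39e-06. Msln, the surface glycoprotein mesothelin, ranged from 6.81 to 45.9 CPM (median 13.6) against 10.7 to 82.0 CPM (median 29.2), with a log2 fold change of -0.86 ± 0.14. KO replicate 1 held the highest Msln in both sets. Pthlh, a parathyroid hormone-like secreted factor, fell by 0.62 on the log2 scale, and Ptgs2, the inducible prostaglandin synthase COX-2, fell by 0.69. Adamts9, a secreted matrix protease, fell by 0.74, and Dock10, a guanine nucleotide exchange factor, by 0.72. E2f8, an atypical E2F repressor, fell by 0.62 and Gen1, a Holliday junction nuclease, by 0.59. Adjusted p for these 6 in edgeR lay between 2.65e-06 and 0.00302.

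Not all of these calls were found again at matched depth. Against nuclei of matched depth Tafa1 (-0.86), Dock10 (-0.88), Msln (-0.82), Il34 (-0.78), Pthlh (-0.68), Sema7a (-0.65) and Ptgs2 (-0.61) were called there too. Adamts9 (-0.55, edgeR adjusted p = 0.0484) was under the fold limit there. Gen1 (-0.51, adjusted p = 0.0522) and E2f8 (-0.37, adjusted p = 0.304) were under the fold limit and did not pass by adjusted p.

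Fewer calls were found again when the nuclei were chosen in another way. With nuclei chosen after thinning to 1500 UMIs, Ptgs2 (-0.59) was the single named gene that was called. Tafa1 stood at -0.46, Sema7a at -0.36, Msln at -0.42 and Dock10 at -0.55, with adjusted p under 0.05 and under the fold limit. Il34 (-0.29), Pthlh (-0.18, adjusted p = 0.537), Adamts9 (-0.26), E2f8 (-0.34) and Gen1 (-0.11) did not pass by adjusted p. With the thinned choice and matched depth together 0 of the 12 named genes were called. Tafa1 at -0.56 (edgeR adjusted p = 0.000169) and Sema7a at -0.42 (adjusted p = 0.0367) passed by adjusted p and stayed under the fold limit. Il34 at -0.38 (adjusted p = 0.131) and Pthlh at -0.07 (adjusted p = 0.942) did not pass. With nuclei chosen without Meis2, Tafa1 (-0.79), Pthlh (-0.91), Adamts9 (-0.65) and Ptgs2 (-0.65) were called. Msln (-0.58, just under the limit), E2f8 (-0.44), Dock10 (-0.31), Il34 (-0.28), Gen1 (-0.21) and Sema7a (-0.19) were not.

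Single libraries carried 7 of the 12 calls past a limit. Without them the log2 fold change was 0.57 for Gpm6b (KO replicate 3), -0.55 for Tafa1 (KO replicate 2), and 0.55 and 0.52 for Rspo3 (CO replicates 2 and 3). It was -0.55 and -0.45 for Pthlh (CO replicates 1 and 2) and -0.47 and -0.54 for E2f8 (CO replicate 1 and KO replicate 2). Sema7a lay between -0.57 and -0.54 (CO replicate 1, CO replicate 3 or KO replicate 2), and Gen1 between -0.58 and -0.46 (any of these or KO replicate 1). The directions held in all of these leave-outs, and adjusted p stayed under 0.05 except for Rspo3 without CO replicate 3 (0.0628) and Pthlh without CO replicate 2 (0.0696).

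**Figure D4:**
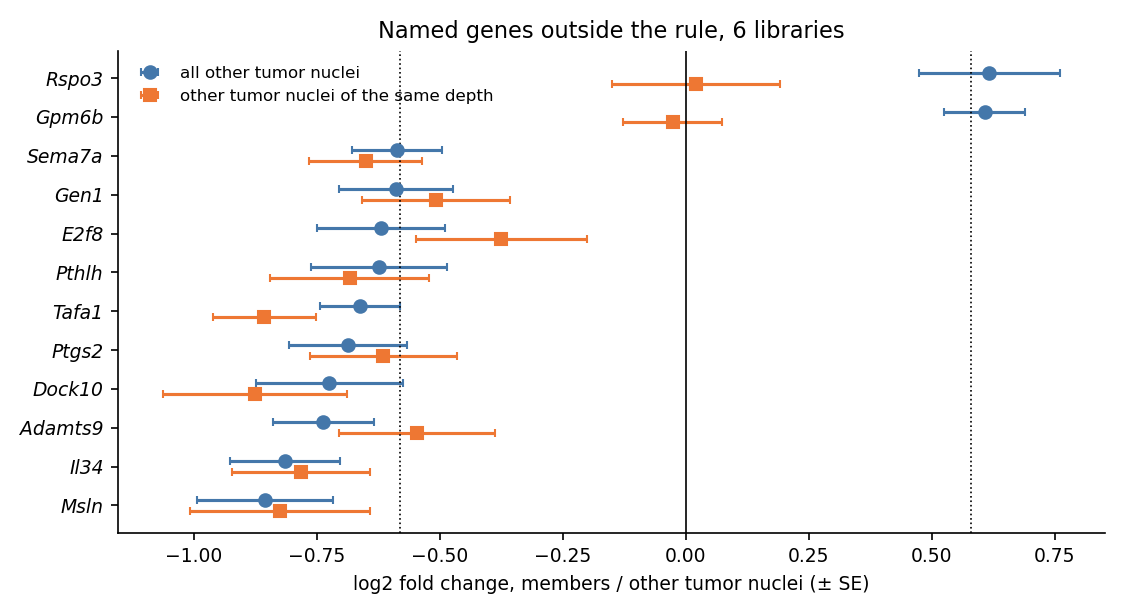
log2 fold change (± SE, 6 libraries) of the 12 named genes between marker-high nuclei and all other tumor nuclei (blue circles) or other tumor nuclei of the same depth (orange squares); dotted lines mark the fold limit of 0.58 in each direction. Rspo3 and Gpm6b move to 0.02 and -0.03 at matched depth, and the genes that are lower remain below 0.

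The gene lists built around the markers' own functions showed no called increase. Of 22 tested genes of PEA3 and Ras-MAPK output, 0 were called and 4 were lower by adjusted p alone (3.21% of all genes were), with a list median log2 fold change of -0.15, where all genes had a median of -0.0018. Areg, an EGF-receptor ligand, had 278 against 373 CPM and a value of -0.43, Hbegf, another such ligand, -0.44, and Dusp5, a MAPK phosphatase, -0.49. At matched depth Areg stood at -0.40 (edgeR adjusted p = 0.000632), Hbegf at -0.16 (adjusted p = 0.457) and Dusp5 at -0.21 (adjusted p = 0.673). There 0 of 20 genes of the list were called and 3 were lower by adjusted p (1.97% of all genes were). Of 12 tested FGF ligands and receptors 0 were called, with Fgf1 at 0.65 (adjusted p = 0.147). Of 13 oncofetal and let-7 target genes 0 were called. By adjusted p alone 2 were higher (1.71% of all genes were) and 1 was lower (3.21%). The higher genes were Arid3a, a DNA-binding factor, at 0.47 and Nr6a1, an orphan nuclear receptor of germ cells and the embryo, at 0.24, and the lower one was Dlk1, a Notch-related surface protein, at -0.26. Igf2bp3, the third family member, had 0.25 (adjusted p = 0.232). At matched depth 0 of the 13 were higher and 2 were lower by adjusted p (1.97% of all genes were). These were Dlk1 (-0.25) and the retroelement-derived gene Peg10 (-0.81), which was called (0.338% of all genes were called lower).

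Partners of the remaining markers behaved likewise. Of 13 TALE homeobox genes and partners of Meis2, 0 were called and 0 passed by adjusted p alone, with Hoxb9 at 0.21 (adjusted p = 0.11). Of 21 phospholipase C and diacylglycerol genes 0 were called. Prkch (-0.53) and Plcb4 (-0.35), a protein kinase C and a phospholipase C, were lower by adjusted p (3.21% of all genes were). Of 26 ADAMTS, ADAMTSL and fibrillin matrix genes 2 were called lower (0.505% of all genes were), Adamts9 and the matrix glycoprotein Fbln2 (-0.62), and at matched depth 0 of 22 were. Of 22 dynein and cargo adaptor genes 0 were called, and the adaptor Hook2 was higher by adjusted p at 0.26 (1.71% of all genes were).

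Mitotic genes were lower by less than the fold limit. All 35 genes of the G2/M list had a log2 fold change below 0, with a median of -0.28, and 21 were lower by adjusted p alone (3.21% of all genes were) while 0 were called. Mki67, the proliferation antigen, had 127 against 169 CPM (-0.43, edgeR adjusted p = 5.04e-05) and Ttk, a spindle checkpoint kinase, 46.5 against 67.9 CPM (-0.57). At matched depth 1 of the 35 was lower by adjusted p (1.97% of all genes were), Ttk at -0.45, and Mki67 stood at -0.15 (adjusted p = 0.479). Of 29 S phase genes 2 were called lower (0.505% of all genes), E2f8 and the recombination factor Rad51ap1 (-0.62), and 8 were lower by adjusted p (3.21% of all genes). At matched depth 0 of 29 were.

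The shares of UMIs per nucleus, after thinning to 1500 UMIs, gave the same picture over the 6 library pairs. G2/M genes made up 0.287% of UMIs in marker-high nuclei and 0.358% in the others, a difference of -0.071 ± 0.016 percentage points (SD), lower in 6 of 6 libraries (exact two-sided sign-flip p = 0.03125, the smallest that 6 pairs allow, adjusted over 5 measures 0.0781). At matched depth the difference was -0.028, also lower in 6 of 6. The S phase share differed by -0.012 points (exact p = 0.1875, adjusted 0.234). The median mitochondrial share was 5.49% against 7.36%, a difference of -1.88 ± 0.80 points (SD), lower in 6 of 6 (exact p = 0.03125, adjusted 0.0781) and -1.53 points at matched depth. Mitochondrial UMIs are part of the total that the marker share was divided by, so this measure is not fully separate from the choice. None of the 5 measures passed after adjustment. The G2/M and mitochondrial shares were already at the smallest exact p, and could have passed only if more measures had reached it too.

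Few stress genes and no interferon gene were called. Of 25 immediate-early and stress genes 2 were called lower (0.505% of all genes), the transcription factors Atf3 (-0.98) and Klf4 (-0.77), 6 were lower by adjusted p (3.21% of all genes), and the median was -0.23. At matched depth 1 of 20 was called lower (0.338% of all genes), Klf4 at -0.67, and 3 were lower by adjusted p (1.97% of all genes). Their share of UMIs differed by -0.016 points, lower in 5 of 6 libraries (exact p = 0.0625, adjusted 0.104). Of 25 interferon response genes 0 were called, and their share differed by 0.00706 points (exact p = 0.625, adjusted 0.625). Of 14 heat shock genes 1 was called lower (0.505% of all genes), the co-chaperone Dnajb1 (-0.60), and 2 were lower by adjusted p (3.21% of all genes). At matched depth 0 of 13 were called and 2 were lower by adjusted p (1.97% of all genes), Hsp90ab1 (-0.34) and Hspa8 (-0.26). Of 29 hypoxia and glycolysis genes 0 were called and the median was -0.04. Pdk1, a kinase that inhibits pyruvate dehydrogenase, was higher by adjusted p at 0.28 (1.71% of all genes were), and Pgam1, a glycolytic mutase, was lower at -0.23 (3.21%). At matched depth Pdk1 (0.34) was again higher by adjusted p (0.563% of all genes were), and Pgam1 (-0.31) and the glycolytic kinase Pgk1 (-0.25) were lower.

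More ribosomal protein genes passed at matched depth than in the full comparison. In the full comparison 0 of 29 were called, 1 was lower by adjusted p, Rps3 (-0.24), and the median was -0.07. At matched depth 1 was called lower (0.338% of all genes), Rpl13a (-0.62), and 10 were lower by adjusted p (1.97% of all genes). There 27 of 29 were below 0, and the median was -0.21. Their share of UMIs after thinning was 0.506% in marker-high nuclei and 0.522% in the others, lower in 4 of 6 libraries, and 0.560% in the others at matched depth, where it was lower in marker-high nuclei of 6 of 6.

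In a short list of 6 genes that lead other tumor states, 3 were higher and 3 lower by adjusted p. Over all genes 1.71% were higher and 3.21% lower. Of the 6, Gpm6b was called higher (0.124% of all genes were) and Msln and Pthlh lower (0.505%). At matched depth 0 were higher and 2 were lower by adjusted p (1.97% of all genes), Msln and Pthlh. Both were called (0.338% of all genes were called lower). Pde10a, a cyclic nucleotide phosphodiesterase, had 534 against 326 CPM and a log2 fold change of 0.58 ± 0.08, just under the fold limit, and 0.11 at matched depth. These genes were listed because they led clusters of the same libraries, so the list is not independent of them. Of 14 mesenchymal and epithelial genes 0 were called, and 3 were lower by adjusted p (3.21% of all genes were), among them the matrix protein Sparc (-0.32).

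Markers of other cell types were present at low levels in both sets. All 14 macrophage markers that the rule had not used were seen in marker-high nuclei, summed to 0.0698 to 0.105% of UMIs by library against 0.0701 to 0.109% in the others. Of 13 tested, 1 was called lower (0.505% of all genes were), Dock2 (-0.84), while 4 of the 13 were below 0 and the median was 0.04. At matched depth 9 of 12 were below 0, and the median was -0.36. There 3 were lower by adjusted p (1.97% of all genes were), Dock2 (-1.14), Ctss (-0.578) and Cd74 (-0.34). Of these Dock2 alone was called (0.338% of all genes were called lower). Of 12 endothelial markers 11 were seen, at 0.0148 to 0.0247% against 0.0196 to 0.0420%, and Egfl7 was at 0. Of 4 tested, 1 was called lower (0.505% of all genes were), Pecam1 at 4.51 against 13.6 CPM (-1.60). At matched depth 0 of 2 tested were called. Of 15 T/NK markers 13 were seen, at 0.000638 to 0.0143% against 0.00287 to 0.00748%, and Cd3e and Cd3d were at 0. Of 3 tested, 1 was called lower (0.505% of all genes were), Tox (-1.48), and at matched depth 0 of 1 tested was called. All 12 host fibroblast markers were seen, at 0.0960 to 0.318% against 0.107 to 0.266%, with 0 of 7 tested called. Ebf2 (0.54) and Pdgfra (0.21) were higher by adjusted p (1.71% of all genes were), and Dcn (-0.47) and Col1a1 (-0.41) lay below 0 and did not pass. At matched depth 0 were higher and 1 was lower by adjusted p (1.97% of all genes were), Col3a1 (-0.35).

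Dendritic (0.00829 to 0.0118%), adipocyte (0.000694 to 0.00494%) and skeletal muscle markers (0.000623 to 0.00556%) were also rare in marker-high nuclei. Xcr1, Clec9a, Ccl22, Cd209a, Lep, Pck1, Mybpc1, Myh1, Ryr1 and Pvalb were at 0. The muscle gene Neb, the 1 muscle marker tested, was called higher (0.65, higher in 4 of 6), as were 0.124% of all genes. At matched depth 0 of 1 muscle marker tested was called. Nuclei marked as likely doublets made up 0 to 4.67% of marker-high nuclei and 0.976 to 3.77% of the others, and with them left out 79 genes were called. The part that other cells' RNA has in the genes called lower was not tested.

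MCT2 KO and CO tumors were compared at a fixed marker level, because the top 15% is the same share in every library. After thinning to 1500 UMIs, 46.5, 51.9 and 54.8% of tumor nuclei in CO and 48.8, 54.4 and 52.4% in KO had 3 or more marker UMIs. The groups overlapped, at 51.1 ± 4.205% and 51.9 ± 2.84% (SD, n = 3 each). The difference of 0.807 percentage points was smaller than the spread of either group (exact two-sided permutation p = 0.8, where 0.1 is the smallest that 3 against 3 libraries allow).

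Within marker-high nuclei 0 of 9828 genes were called between KO and CO by edgeR (0%) and 0 by DESeq2, and 565 had an unadjusted edgeR p under 0.05. The markers chose these nuclei, so their values here are a description with no test. Bicd1, the dynein adaptor, stood at 225, 216 and 205 CPM in CO and 246, 417 and 249 CPM in KO, without overlap, and 11.7% of all genes had groups that did not overlap. Its log2 fold change was 0.50, and the other markers lay between -0.31 for Plcd3 and 0.15 for Igf2bp2. Over all genes the smallest unadjusted p belonged to Dtna (1.34), Dcn (-3.04) and Zc3h6 (1.49), each with an adjusted p of 0.766. Dcn, the matrix proteoglycan decorin and a host fibroblast marker, stood at 17.9, 32.2 and 30.9 CPM in CO and 1.51, 1.53 and 8.21 CPM in KO. Without KO replicate 1, 1385 genes were called, 404 higher and 981 lower, so this count rested on that library.

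**Figure D5:**
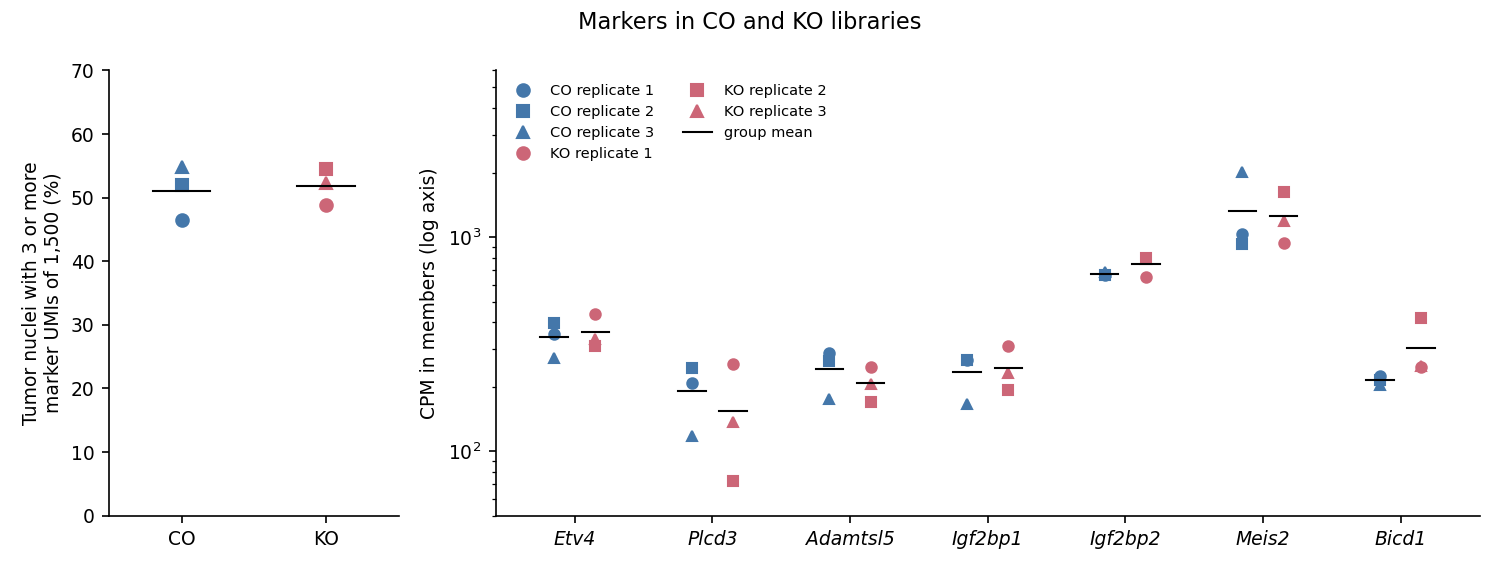
Left, percent of tumor nuclei with 3 or more marker UMIs of 1500 in each library; right, level of the 7 markers (CPM, log axis) in marker-high nuclei of each library, with black bars at the group means. The CO and KO points overlap in the left panel, at means of 51.1 and 51.9%, and for 6 of the 7 markers in the right panel, where Bicd1 does not overlap; 11.7% of all genes did not.

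Over all tumor nuclei, where the rule does not fix the marker level, 0 of 13017 genes were called between KO and CO by edgeR (0%) and 28 by DESeq2, and 846 had an unadjusted edgeR p under 0.05. The markers lay between -0.40 for Plcd3 and 0.36 for Bicd1, with adjusted p of at least 0.594. Without KO replicate 1, 2851 genes were called, and Plcd3 was among them at -0.93 (adjusted p = 0.0459). In edgeR's test of whether the contrast of marker-high with other tumor nuclei differed between KO and CO, 0 of 11777 genes were called (0%) and DESeq2 called 0, while 686 had an unadjusted edgeR p under 0.05. Leaving out single libraries gave 8 calls without CO replicate 1, 4 without KO replicate 1, 1 each without CO replicate 2, KO replicate 2 or KO replicate 3 and 0 without CO replicate 3, and 9 genes were called without the filter on low counts. The smallest p values were those of Mid1, a microtubule-associated ubiquitin ligase (-0.59), Pde1a, a calmodulin-dependent phosphodiesterase (-0.57), both at an adjusted p of 0.118, and Ahr, the aryl hydrocarbon receptor (-0.63, adjusted p = 0.21). All were highest in the marker-high nuclei of CO replicate 3, where Pde1a stood at 1188 CPM against 268 to 663 CPM in the other 5 libraries.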

How the data were processed

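Groups came from the sample titles. The authors deposited UMI counts per gene and nucleus, made with Cell Ranger (3.0.2 in their processing notes, 3.1.0 in the file headers) on GRCm38. The counts are whole numbers, so the SoupX correction of free RNA in their methods is not visible, and some samples had extra washes (which is not stated). Whether introns were counted is not given in the sources used here. Nuclei with 100 to 7500 genes and under 20% mitochondrial UMIs were kept. Raw counts were summed per library over marker-high and other tumor nuclei and fitted with edgeR 4.0.16 (quasi-likelihood test, TMM, library as a block, 12 sums, default filter). The 15 genes of the rule were left out of that fit. Calls needed an absolute log2 fold change of 0.58 and a Benjamini-Hochberg adjusted p of 0.05 over all genes tested. CPM are TMM-scaled, except those of Slc16a7 over all nuclei. KO against CO had no covariate. DESeq2 1.42.0 was an alternative. The study marked doublets with scDblFinder. Here Scrublet scores (scanpy 1.11.5) marked 521 nuclei, at 0.8% per 1000 barcodes, which were kept in the main comparison. The scripts were tested on simulated data. Labels do not say that tumors came from separate litters or days, so p-values cover these libraries only. For marker-high against other tumor nuclei they measure how much the difference within a library varies between the 6 libraries. For KO against CO they measure the spread between libraries. Intervals and counts cover counting error only where no replicate spread is given.

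The members, gene lists and tests were chosen with earlier results of these data known. Named genes were called genes with the same sign in 6 libraries and a mean of at least 30 CPM on the higher side (up to 15 higher and 10 lower), predicted genes left out, plus at most 4 per list by absolute change, the genes of the rule, and the 3 smallest p values where no gene was called.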

Additional observations from a re-analysis of the deposited data

How the results depend on the processing

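Of 617 alternative values, 478 kept their direction and their side of the threshold. The 71 genes called between marker-high and other tumor nuclei became 147 without a filter on low counts, 4 with DESeq2, 45 in nuclei of low cycling share, 45 with Igf2bp2 left out of the choice, 36 when nuclei were chosen after thinning, 34 at matched depth, 29 with separate choosing and measuring UMIs, and 13 with the thinned choice and matched depth together (the last pair added after seeing the data). Leaving out single libraries gave 56 to 78. KO against CO gave 0 to 1385 calls in marker-high nuclei, 0 to 2851 in all tumor nuclei (28 with DESeq2), and the interaction 0 to 8 (9 without a filter). The counts of 1385 and 2851 are those without KO replicate 1. The difference in nuclei past the fixed level turned to -0.328 points at 5 marker UMIs, -0.773 at 1000 UMIs, -0.232 at 3000 UMIs and -1.80 with the tumor gate at 1%, and ranged from -1.48 to 2.66 without single libraries. The interferon share ranged from -0.00102 to 0.0116 and the immediate-early share from -0.0204 to -0.0104 without single libraries, and the latter was -0.0199 without thinning (exact p = 0.03125). With 5 pairs the smallest exact p is 0.0625.

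Directions also turned for Rspo3 (-0.18) and Gen1 (0.065) with the thinned choice at matched depth, for Gpm6b (-0.027 at matched depth, -0.33 without Meis2), and for Etv4 (0.086) and Bicd1 (0.27) between the ways of measuring a marker apart from the choice. For KO against CO in marker-high nuclei Etv4 ranged from -0.087 to 0.21 without single libraries (-0.018 at the 1% gate), Plcd3 from -0.92 to 0.020, Igf2bp1 from -0.16 to 0.19 and Meis2 from -0.34 to 0.36 (0.0066 with the thinned choice). Meis2 in all tumor nuclei ranged from -0.18 to 0.29. The leave-outs that turned a value were, for marker-high nuclei, CO replicate 3 and KO replicate 1 (Etv4 -0.048 and -0.087, Igf2bp1 -0.12 and -0.16, Meis2 0.36 and 0.09) and KO replicate 2 (Plcd3 0.020). The causes were not tested.

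Same-numbered CO and KO libraries correlated at 0.39, -0.29 and 0.18 in marker-high nuclei and at 0.51, -0.23 and 0.39 in all tumor nuclei, so the numbers were not taken as pairs. With a replicate block 0 genes were called in either set, with 788 and 1803 at an unadjusted p under 0.05, and the fixed-level difference was 0.807 points (exact p = 0.75, 0.25 being the smallest possible). The marker-high nuclei of CO replicate 3 and KO replicate 3 number 108 and 107, which limits scarce genes most.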
